A study of Mus musculus with 24 samples.

Results

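The E2F transcription factors and the pocket proteins that bind them were followed through 24 h of activation of naive mouse CD4 T cells with and without Raptor. The 10 members were the genes E2f1, E2f2, E2f3, E2f4, E2f6, E2f7, E2f8, Tfdp1, Rbl1 and Rbl2, chosen by name from a table of 17097 genes. Each gene was read by its brightest probe set on average across the 24 arrays, and 7 of the 10 had further probe sets that served as a check. The cells were CD4+CD62LhiCD44loCD25- T cells sorted from spleen and peripheral lymph nodes. Wild-type mice carried the strain label C57BL/6, and CD4(cre)Raptor(fl/fl) mice, for which no strain was labelled, are called Raptor-deficient here. The Cd4 promoter drives Cre in developing T cells of both the CD4 and the CD8 lineage, so the deletion is not particular to the stimulated cells. Cells were used directly after the sort, or kept on plate-bound anti-CD3 and anti-CD28 for 8 h or 24 h, in 6 groups of 4 samples. The labels do not say that replicates came from separate animals, and the p-values then cover the spread of these samples alone, which may be technical. No age is labelled.

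E2F proteins bind promoters of genes for DNA replication and cell division. E2F1, E2F2 and E2F3 activate transcription when they are free of RB, and E2F4 mostly represses it together with the pocket proteins p107 (Rbl1) and p130 (Rbl2). E2F6 represses with Polycomb partners and binds no pocket protein. These factors pair with a DP protein, of which DP1 (Tfdp1) is one, whereas E2F7 and E2F8 bind DNA without DP and repress. In resting cells p130 and E2F4 join the MuvB proteins in the DREAM complex, which holds both replication and division genes silent. Cyclin D and cyclin E kinases phosphorylate the pocket proteins as a cell leaves quiescence. Raptor is the subunit that defines the kinase complex mTORC1, a sensor of nutrients and growth signals.

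Of the 10 genes, 9 had a promoter window in the RefSeq table of build GRCm38.p6, which holds 300 bases per start site, 250 before and 50 after. The table held no window for E2f4. An E2F motif, spelled TTTGGCGC, TTTCCCGC, TTTGCCGC or TTTCGCGC and searched on both strands, was in a window of 5 of the 9 genes, E2f2, E2f3, E2f7, Rbl1 and Tfdp1. The same search matched 2.61% of the 27025 genes with a window. A CHR motif, the cell cycle homology region bound by MuvB, spelled TTTGAA and searched on both strands, was in a window of 4 of the 9, E2f2, E2f3, E2f8 and Rbl2, against 20.2% of all genes. No CHR match overlapped an E2F match in these windows. The only windows of E2f1 and E2f8 lay wholly inside the annotated gene, at starts 466 and 477 bases in from its outermost edge, so the outermost promoters of these genes were not searched, and the absence of a match says nothing of E2f1. Of the 7 genes with a window that reached the gene's edge, 5 held an E2F motif and 3 a CHR motif in any window. The CHR match of E2f2, which is among these 3, was not in the window at the edge. The E2F match of E2f2 lay 39 bases after the start, and its CHR match was at a second start 8508 bases into the gene. Shown are the stretches upstream of a start that held a match, on the gene's own strand, with the E2F match or the CHR match in capitals. The Tfdp1 match also lay 96 bases before a second start, and that overlapping stretch is not shown. A match is a description of these letters only.
E2f2, second start (chr4:136180711-136180781, plus strand, CHR match 31 bases before the start): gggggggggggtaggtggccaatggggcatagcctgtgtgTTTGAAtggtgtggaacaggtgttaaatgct
E2f3 (chr13:29986064-29986126, minus strand, E2F match 11 bases and CHR match 23 bases before the start): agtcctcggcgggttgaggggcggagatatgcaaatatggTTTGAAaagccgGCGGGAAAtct
E2f8 (chr7:48881597-48881656, minus strand, CHR match 20 bases before the start): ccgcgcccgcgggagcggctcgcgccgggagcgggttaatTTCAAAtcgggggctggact
E2f7 (chr10:110745201-110745288, plus strand, E2F match 198 bases before the start): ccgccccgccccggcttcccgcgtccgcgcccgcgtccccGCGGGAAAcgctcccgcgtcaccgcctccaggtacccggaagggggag
Rbl1 (chr2:157204535-157204592, minus strand, E2F match 18 bases before the start): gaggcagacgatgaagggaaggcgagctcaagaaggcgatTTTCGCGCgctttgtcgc
Rbl2 (chr8:91069816-91069901, plus strand, CHR match 201 bases before the start): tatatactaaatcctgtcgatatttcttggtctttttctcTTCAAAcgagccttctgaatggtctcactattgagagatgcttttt
Tfdp1 (chr8:13338668-13338750, plus strand, E2F match 43 bases before the start): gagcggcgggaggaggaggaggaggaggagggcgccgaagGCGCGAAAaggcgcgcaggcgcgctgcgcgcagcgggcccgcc
The E2F matches of E2f3, E2f7 and Tfdp1 and the CHR matches of E2f8 and Rbl2 were read on the opposite strand, so they appear above as GCGGGAAA, GCGCGAAA and TTCAAA.

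Values are log2 intensities deposited by the authors, so a difference of 1 is a 2-fold difference. Group means under 5.51, the median of all gene values, lie near background, where a fold is one of measured intensities. The array medians lay between 5.15 and 5.29, and replicates correlated across genes with a Pearson r of at least 0.978. Rptor itself was 2.02-fold lower in Raptor-deficient cells at 8 h (limma with Benjamini-Hochberg adjustment over all genes, adjusted p = 0.000292) and 1.56-fold lower at 24 h (adjusted p = 0.0109). In unstimulated cells it was 6.66 ± 0.60 against 7.28 ± 0.20 (SD, n = 4 each), with an adjusted p of 0.075. Cd3e averaged between 10.59 and 10.92 in the 6 groups, and Cd4 between 9.90 and 11.22. The unstimulated Raptor-deficient replicate 1 was unlike its group: 377 genes lay 2-fold or more from the average of its fellow replicates, where other arrays had 2 to 87. At 24 h the liver gene Alb was at 9.02 and 9.11 in replicate 1 of wild type and of the Raptor-deficient group, while the remaining 24 h samples had 6.22 to 6.42.

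In wild-type cells 8 of the 10 genes were higher at 24 h than in unstimulated cells, and 1, Rbl2, was lower. Over all genes 25.4% were called higher and 24.3% lower in that comparison, a call being an adjusted p under 0.05. The median change of the members was 1.67 on the log2 scale, against -0.03 over all genes tested. The members took different courses. E2f4, E2f6 and Tfdp1 had risen by 8 h, whereas E2f1, E2f7 and E2f8 were not called at 8 h and rose between 8 h and 24 h. E2f3 rose slightly by 8 h and strongly after it. E2f2 fell first and then rose, Rbl1 fell and returned, and Rbl2 fell and regained part. By 8 h 4 members were higher and 3 lower, where 18.9% and 20.8% of all genes were, and from 8 h to 24 h 8 were higher and 0 lower, against 17.4% and 11.0%.

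In Raptor-deficient cells the early changes were called in the same direction for 6 of those 7 genes, all but E2f3, and fewer of the later ones were. By 8 h 3 members, E2f4, E2f6 and Tfdp1, were higher and 3, E2f2, Rbl1 and Rbl2, were lower, where 16.0% and 16.8% of all genes were. From 8 h to 24 h E2f2, E2f3, E2f8 and Tfdp1 were called higher, by 0.41 to 0.63 on the log2 scale, and 0 lower, against 15.2% and 7.81%. By 24 h 6 were higher than in unstimulated cells and 1 lower, against 21.6% and 17.5%, with a median change of 0.35. Of the 6, E2f1 (0.29, limma, adjusted p = 0.0374) was close to the threshold. Its call was lost without unstimulated replicate 1, 2 or 4 or 24 h replicate 1, 3 or 4, with adjusted p from 0.0515 to 0.157, with array weights (0.0962) and with only the groups compared (0.0688). The other E2f1 probe set was also called for this change (0.39, limma, 0.0295, adjusted over all probe sets). The count of members higher ran from 4 to 6 without single samples.

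In Raptor-deficient cells at 24 h, 8 of the 10 genes were lower than in wild type, 1 was higher, and Rbl1 did not pass the test. Over all genes 21.5% were called, 13.1% lower and 8.35% higher. For all 10 members the 4 samples of one genotype lay on one side of the 4 of the other, as they did for 28.4% of all genes. The median difference of the members was -1.12, against 0.01 over all genes. The 8 lower calls were also made with the arrays centred on their medians, with cyclic loess and without any single sample. At 8 h 2 members were lower, E2f6 and Tfdp1, and 1 was higher, Rbl2, where 12.9% of all genes were called, 8.77% lower and 4.14% higher. In 3 members the genotypes did not overlap at 8 h, as in 19.1% of all genes. In unstimulated cells E2f2 was the only member called, as lower, where 1.94% of all genes were, 1.24% lower and 0.702% higher. In these bulk samples, fewer cells that express a gene and less RNA of it per cell cannot be told apart.

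**Figure D1:**
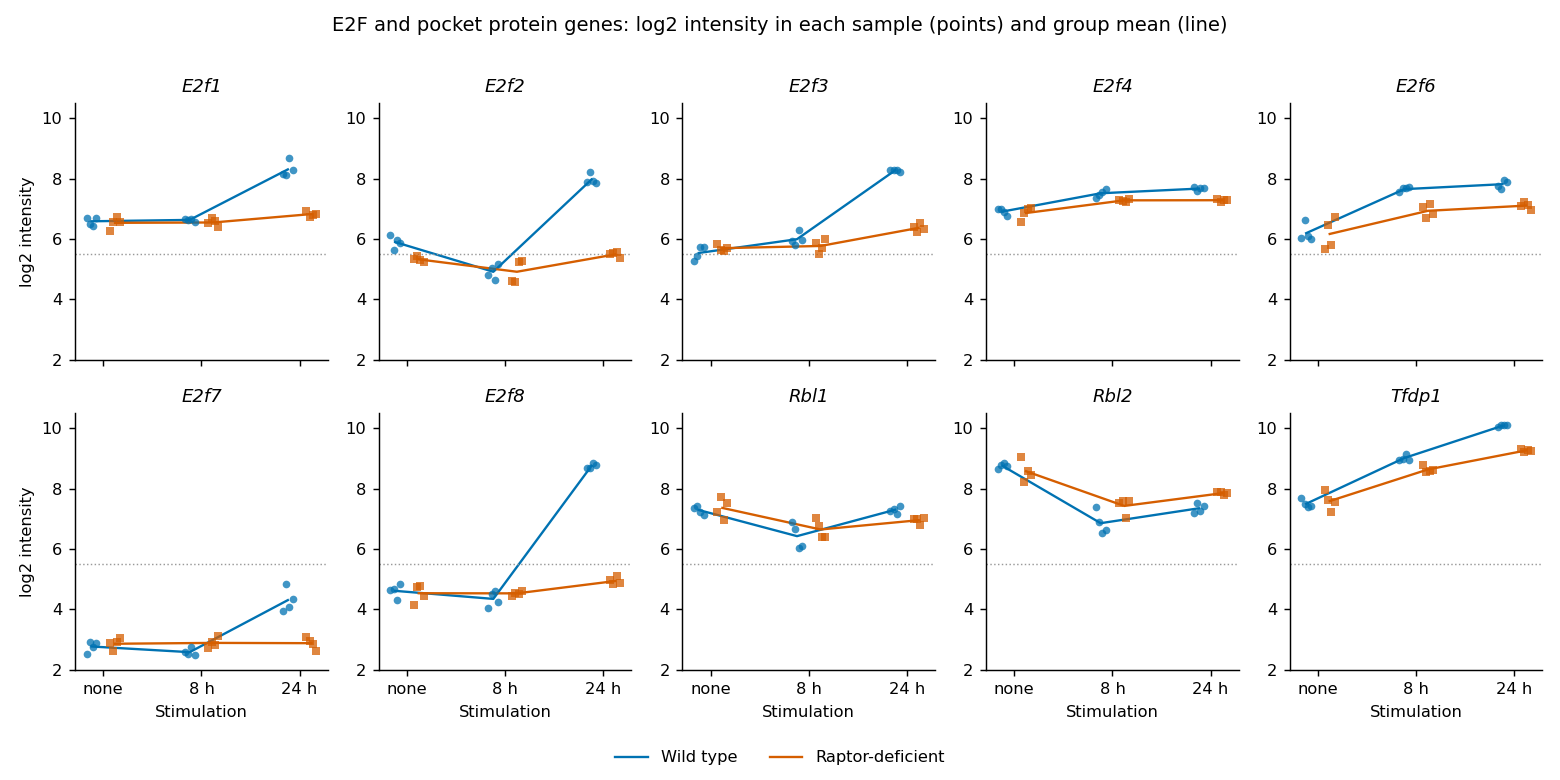
Log2 intensity of the 10 genes (y axis) without stimulation and after 8 h and 24 h (x axis), with 1 point per sample, 4 per group, and lines through the group means. Circles and the blue line are wild type, squares and the orange line are Raptor-deficient, and the dotted line is the median of all gene values, 5.51. At 24 h the wild-type samples of E2f1, E2f2, E2f3, E2f7 and E2f8 stand above all Raptor-deficient ones, whose largest mean change from unstimulated is 0.67, for E2f3. E2f2, Rbl1 and Rbl2 are lower at 8 h than unstimulated in both genotypes, and Rbl2 is still lower at 24 h.

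Among the activators, E2f1 was not called at 8 h and rose after it. The unstimulated wild-type samples had E2f1 log2 intensities of 6.71, 6.51, 6.45 and 6.69, and the 8 h samples 6.67, 6.63, 6.68 and 6.55. At 24 h the wild-type samples reached 8.16, 8.11, 8.68 and 8.27, and the Raptor-deficient samples 6.93, 6.74, 6.79 and 6.84. All 4 wild-type samples at 24 h were higher than every other sample, and the lowest of them was above the highest Raptor-deficient sample by more than the range within either group. Wild-type E2f1 was 3.29-fold higher at 24 h than in unstimulated cells (limma, adjusted p = 4.09e-13). The Raptor-deficient group at 24 h was lower than wild type by 2.79-fold (difference -1.48, SE 0.11, adjusted p = 7.26e-11). The other E2f1 probe set gave -2.63. The genotypes did not pass the test at 8 h, where the difference was -0.09 with a 95% interval from -0.31 to 0.14.

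E2f2 fell before it rose. In wild type the unstimulated samples had E2f2 log2 intensities of 6.12, 5.64, 5.96 and 5.88, the 8 h samples 4.82, 5.03, 4.64 and 5.18, and the 24 h samples 7.88, 8.22, 7.92 and 7.86. The 3 groups did not overlap. The fall by 8 h was 1.98-fold (limma, adjusted p = 2.32e-06) and the rise from 8 h to 24 h was 8.30-fold (adjusted p = 3.4e-15), with the 8 h mean near background at 4.92.

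The Raptor-deficient samples had E2f2 log2 intensities of 5.34, 5.44, 5.30 and 5.23 unstimulated, 4.60, 4.57, 5.23 and 5.27 at 8 h, and 5.51, 5.53, 5.57 and 5.36 at 24 h. At 24 h they overlapped their unstimulated range and were below all wild-type samples of that time. The difference from wild type was -2.48 (SE 0.14), or 5.58-fold, with an adjusted p of 5.16e-13 (limma). The 3 Raptor-deficient means were near background, from 4.92 to 5.49. Their fall by 8 h (-0.41, adjusted p = 0.028) was lost without unstimulated replicate 2 (0.0724) or 8 h replicate 1 (0.13) or 2 (0.144), with array weights (0.108) and with only the groups compared (0.0965), while the other E2f2 probe set fell by 0.94 (0.000163, adjusted over all probe sets). By 24 h that probe set was 0.54 higher than unstimulated without Raptor (0.0194), and the mean of both 0.35 higher (0.017), where the brighter one gave 0.16 and no call. The unstimulated genotype difference of -0.57 had an adjusted p of 0.0348. That call was lost without wild-type replicate 1 (adjusted p = 0.127), 3 (0.0959) or 4 (0.0654), and without Raptor-deficient replicate 1 (0.0582) or 4 (0.0698). The other E2f2 probe set gave -0.67 unstimulated, which did not pass (0.0592, adjusted over all probe sets), and -2.87 at 24 h.

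E2f3 rose in both genotypes by 24 h, to different heights. In wild type it went from 5.27, 5.44, 5.73 and 5.72 unstimulated through 5.92, 5.81, 6.29 and 5.96 at 8 h to 8.29, 8.29, 8.30 and 8.22 at 24 h on the log2 scale. The Raptor-deficient E2f3 samples were at 5.85, 5.63, 5.60 and 5.72 unstimulated, at 5.88, 5.50, 5.71 and 5.99 at 8 h, and at 6.40, 6.23, 6.54 and 6.32 at 24 h. At 24 h each group was above all unstimulated samples, and the Raptor-deficient group overlapped the wild-type 8 h group. E2f3 changed by 2.74 (SE 0.12) with Raptor and by 0.67 (SE 0.12) without it, and both changes passed the test (limma, adjusted p = 1.13e-16 and 2.58e-05). The genotypes differed by 3.74-fold at 24 h (adjusted p = 1.41e-12), with -1.87 on the other probe set. At 8 h the difference of -0.22 did not pass (adjusted p = 0.243), and the other probe set gave -0.41 with an adjusted p of 0.0127 over all probe sets.

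Tfdp1, the DP partner of these factors, rose in steps. Its wild-type log2 intensities were 7.68, 7.49, 7.38 and 7.43 unstimulated, 8.95, 8.99, 9.15 and 8.95 at 8 h, and 10.02, 10.10, 10.09 and 10.09 at 24 h. In Raptor-deficient cells Tfdp1 was at 7.95, 7.63, 7.23 and 7.54 unstimulated, 8.77, 8.56, 8.59 and 8.61 at 8 h, and 9.32, 9.20, 9.28 and 9.24 at 24 h. Apart from the unstimulated groups, no groups overlapped, and the order from low to high was Raptor-deficient 8 h, wild-type 8 h, Raptor-deficient 24 h and wild-type 24 h. The genotype difference was -0.38 at 8 h (SE 0.10, limma, adjusted p = 0.014) and -0.82 at 24 h (SE 0.10, adjusted p = 1.31e-06). The 8 h call was lost without wild-type 8 h replicate 3 (adjusted p = 0.0607). By 24 h Tfdp1 had risen by 2.58 with Raptor and by 1.68 without it, or 64.9% of the wild-type change, and the difference between these changes passed the test (adjusted p = 9.41e-05).

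Of the repressors that pair with DP, E2f4 rose early and modestly. Its wild-type log2 intensities went from 6.997, 6.98, 6.91 and 6.75 unstimulated to 7.38, 7.47, 7.56 and 7.66 at 8 h and 7.71, 7.60, 7.68 and 7.69 at 24 h. The Raptor-deficient E2f4 samples were at 6.57, 6.87, 6.99 and 7.02 unstimulated, 7.30, 7.28, 7.22 and 7.34 at 8 h, and 7.31, 7.22, 7.31 and 7.31 at 24 h. The stimulated samples of each genotype lay together, and the wild-type ones lay above the Raptor-deficient ones. The difference was -0.23 at 8 h, which did not pass (limma, adjusted p = 0.0884), and -0.38 (SE 0.09) at 24 h, a 1.31-fold difference that did (adjusted p = 0.00212).

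E2f6, the pocket-independent repressor, also rose mostly before 8 h. In wild type its log2 intensities were 6.05, 6.62, 6.11 and 6.01 unstimulated, 7.54, 7.67, 7.68 and 7.71 at 8 h, and 7.76, 7.67, 7.95 and 7.88 at 24 h. The Raptor-deficient E2f6 samples had 5.66, 6.47, 5.79 and 6.75 unstimulated, 7.05, 6.70, 7.16 and 6.84 at 8 h, and 7.11, 7.21, 7.14 and 6.96 at 24 h. The stimulated genotypes did not overlap, while the unstimulated Raptor-deficient samples spread widely. The difference was -0.72 (SE 0.17) at 8 h and -0.71 (SE 0.17) at 24 h, with adjusted p values of 0.00463 and 0.00298 (limma). The other E2f6 probe set, which correlated with the first at r = 0.769 over the 24 samples, gave -0.38 and -0.21 and passed at neither time (0.279 and 0.538, adjusted over all probe sets).

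The atypical repressors E2f7 and E2f8 rose late in wild type, and little or not at all without Raptor. E2f8 had wild-type log2 intensities of 4.64, 4.68, 4.30 and 4.83 unstimulated, 4.04, 4.50, 4.61 and 4.23 at 8 h, and 8.68, 8.69, 8.85 and 8.79 at 24 h. The Raptor-deficient E2f8 samples had 4.16, 4.75, 4.77 and 4.46 unstimulated, 4.44, 4.54, 4.53 and 4.62 at 8 h, and 4.96, 4.83, 5.09 and 4.88 at 24 h. The wild-type 24 h samples stood alone, more than 3 log2 units above all others. E2f8 was 17.6-fold higher at 24 h than unstimulated in wild type (limma, adjusted p = 3.58e-19) and 1.32-fold higher in Raptor-deficient cells (adjusted p = 0.0142). The other E2f8 probe set was 0.16 higher in Raptor-deficient cells, which did not pass (0.246, adjusted over all probe sets). The call of the brighter one was lost without Raptor-deficient unstimulated replicate 1 (adjusted p = 0.0819) or 24 h replicate 3 (0.0537), and that of the rise from 8 h was lost without 8 h replicate 1 (0.0643) or 24 h replicate 3 (0.0827).

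At 24 h the genotypes differed in E2f8 by -3.81 (SE 0.13), or 14.1-fold (limma, adjusted p = 1.16e-17), and ranked 8 by p among 17097 genes. The other E2f8 probe set gave -2.94. All E2f8 groups but wild type at 24 h were near background, with means under 5.51.

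E2f7 was near background throughout. Its wild-type log2 intensities were 2.52 to 2.91 unstimulated, 2.50 to 2.75 at 8 h, and 3.96, 4.84, 4.09 and 4.33 at 24 h. The Raptor-deficient E2f7 samples ran from 2.61 to 3.13 over all 3 times. The wild-type 24 h samples were the ones that stood above the rest. The difference at 24 h was -1.43 (SE 0.15, limma, adjusted p = 3.19e-08), and E2f7 had 1 probe set.

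Rbl2, which codes for the quiescence pocket protein p130, fell by 8 h, as E2f2 and Rbl1 did, and was the only member called lower at 24 h than unstimulated in either genotype. Its wild-type log2 intensities were 8.66, 8.77, 8.84 and 8.73 unstimulated, 7.39, 6.88, 6.52 and 6.63 at 8 h, and 7.19, 7.53, 7.25 and 7.42 at 24 h. In Raptor-deficient cells Rbl2 was at 9.06, 8.21, 8.57 and 8.45 unstimulated, 7.52, 7.57, 7.03 and 7.58 at 8 h, and 7.87, 7.89, 7.77 and 7.85 at 24 h. The unstimulated samples were above all stimulated ones in both genotypes. At 8 h the genotypes overlapped in Rbl2, since wild-type replicate 1 was above Raptor-deficient replicate 3, and at 24 h the Raptor-deficient samples were all higher.

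By 8 h Rbl2 had fallen 3.72-fold with Raptor and 2.22-fold without it. It was higher without Raptor by 0.57 (SE 0.16, limma, adjusted p = 0.0174) at 8 h and by 0.50 (SE 0.16, adjusted p = 0.0268) at 24 h. These calls were near the threshold. The one at 8 h was lost without wild-type replicate 3 or 4 or Raptor-deficient replicate 1, 2 or 4, with adjusted p from 0.051 to 0.09. The one at 24 h was lost without wild-type replicate 1 or 3 or Raptor-deficient replicate 1, 2 or 4, with adjusted p from 0.0542 to 0.0771. It was also lost with the arrays centred on their medians (0.0611). The partial return of Rbl2 in wild type from 8 h to 24 h (0.49, adjusted p = 0.0223) was lost without 8 h replicate 3 (0.104) or 4 (0.0828) or 24 h replicate 2 (0.075) or 4 (0.0556). The other Rbl2 probe set gave 0.57 and 0.48, which did not pass (0.0544 and 0.0753, adjusted over all probe sets).

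Rbl1, which codes for p107, dipped at 8 h. In wild type its log2 intensities went from 7.35, 7.44, 7.23 and 7.13 to 6.90, 6.67, 6.02 and 6.11 at 8 h and back to 7.27, 7.33, 7.17 and 7.42 at 24 h. The Raptor-deficient Rbl1 samples went from 7.21, 7.73, 6.96 and 7.53 to 7.02, 6.76, 6.40 and 6.40 and then to 6.99, 7.004, 6.80 and 7.01. The fall by 8 h was called in both genotypes (-0.86 and -0.71, limma, adjusted p = 0.000136 and 0.00143). The rise after it was called in wild type (0.87, adjusted p = 0.000229) and was 0.31 in Raptor-deficient cells (adjusted p = 0.225). The difference between these rises did not pass (adjusted p = 0.25), but with the mean of both probe sets it was -0.59 and passed (adjusted p = 0.0337). By 24 h Raptor-deficient Rbl1 was at -0.41 from unstimulated, which did not pass, and its other probe set was called at -0.38 (0.0324, adjusted over all probe sets). At 24 h the genotypes did not overlap, yet their difference of -0.35 did not pass (adjusted p = 0.167, 95% interval -0.70 to 0.00). That difference was called with only the groups compared (adjusted p = 0.00716) and with the mean of both probe sets (-0.32, adjusted p = 0.0471).

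**Figure D2:**
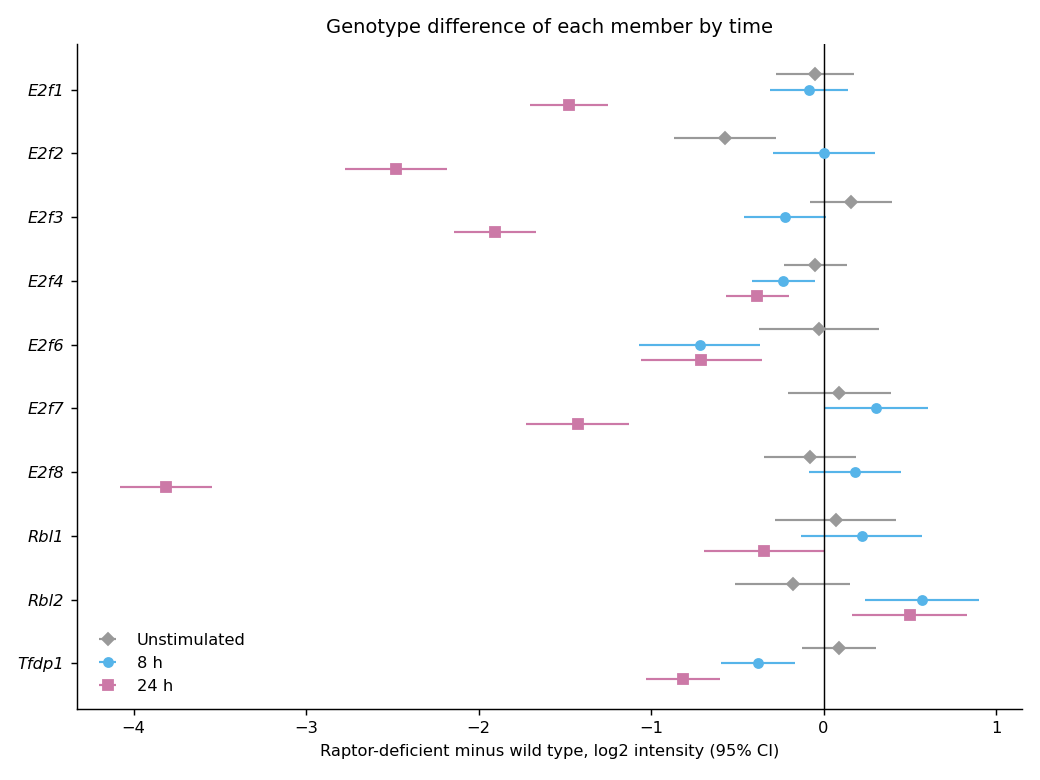
Difference in log2 intensity, Raptor-deficient minus wild type (x axis), for each of the 10 genes (y axis) unstimulated (diamonds), at 8 h (circles) and at 24 h (squares), with 95% confidence intervals from the linear model over 24 samples. The squares of E2f8 (-3.81), E2f2 (-2.48), E2f3 (-1.90), E2f1 (-1.48) and E2f7 (-1.43) lie far to the left, and those of Rbl2 lie to the right of 0.

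The genotypes were next compared in how far each gene changed by 24 h. The Raptor-deficient change was 1.21% of the wild-type change for E2f7, 7.89% for E2f2, 9.74% for E2f8, 16.9% for E2f1 and 24.6% for E2f3. It was 51.7% for the fall of Rbl2, 55.8% for E2f4, 57.9% for E2f6 and 64.9% for Tfdp1. These shares moved with the probe set: the other ones gave 19.7% for E2f2, 5.09% for E2f8, 13.4% for E2f1 and 85.8% for E2f6, so the order of E2f2 and E2f8 is not settled. The E2f7 share rests on values near background. For Rbl1 no such share was formed, since its wild-type change by 24 h was 0.01. The difference between the changes passed the test for E2f1, E2f2, E2f3, E2f7, E2f8 and Tfdp1, all smaller rises without Raptor, and for Rbl2 (0.68, limma, adjusted p = 0.0494). Over all genes 8.01% were called lower and 5.26% higher in this test. For the change from 8 h to 24 h, the 5 genes E2f1, E2f2, E2f3, E2f7 and E2f8 rose less without Raptor and 0 rose more, against 3.20% and 1.33%. For the change by 8 h, 1 member, Rbl2, was called higher and 0 lower, against 1.94% and 4.36%. Both Rbl2 calls of this kind were lost without most single samples, with adjusted p up to 0.119 by 8 h (0.0489 with all samples) and 0.114 by 24 h. For E2f4 and E2f6 it did not pass (adjusted p = 0.0797 and 0.0614). Both would have been called with a filter on dim genes, under both other scalings and without the Raptor-deficient replicate that stood apart (adjusted p = 0.00851 and 0.0098). The other E2f6 probe set gave -0.15 in this test and did not pass (limma, 0.82, adjusted over all probe sets).

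**Figure D3:**
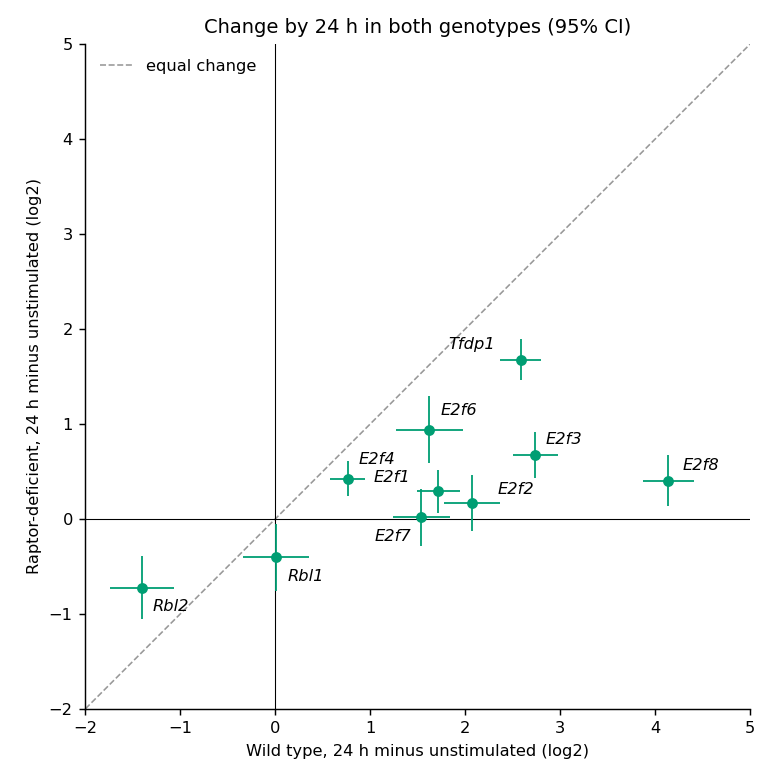
Change in log2 intensity from unstimulated to 24 h in wild type (x axis) and in Raptor-deficient cells (y axis), 1 point per gene, with 95% confidence intervals, and a dashed line of equal change. E2f8 lies at 4.14 and 0.40, E2f3 at 2.74 and 0.67, Tfdp1 at 2.58 and 1.68, and E2f6, nearer to the dashed line, at 1.62 and 0.94.

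Of the family genes outside the members, Tfdp2, Rb1 and E2f5 were followed too. Tfdp2, which codes for the other DP partner, fell 2.66-fold in wild type by 8 h (limma, adjusted p = 3.7e-11) and was 1.61-fold higher in Raptor-deficient cells at that time (adjusted p = 8.6e-05), at 7.07 against 6.39. By 24 h the genotypes were at 7.42 and 7.47. Rb1, the retinoblastoma gene, fell 1.73-fold in wild type by 8 h (adjusted p = 1.77e-05), and E2f5, a repressor like E2f4, rose 1.89-fold (adjusted p = 0.000138). At 24 h none of these 3 was called between genotypes, with differences from -0.31 to 0.28, where 21.5% of all genes were called.

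The kinases that act on the pocket proteins split by time. Of 11 measured genes for these kinases, their cyclins and cofactors, 3 were lower and 2 higher without Raptor at 8 h. At 24 h 7 were lower, with a median of -0.89. Over all genes 8.77% were lower and 4.14% higher at 8 h, and 13.1% were lower at 24 h. Cdk4, the cyclin D kinase, rose 5.46-fold by 8 h in wild type (limma, adjusted p = 7.29e-15) and was 1.33-fold lower without Raptor then (adjusted p = 0.024). Cks1b, a kinase cofactor, was 1.48-fold lower at 8 h (adjusted p = 0.00484), and Ccnd3, cyclin D3, was 1.59-fold higher (adjusted p = 6.33e-06). Cdk6 and Ccnd2 rose by 2.53 and 1.59 on the log2 scale in wild type by 8 h. At 24 h Ccna2, cyclin A2, was 12.1-fold lower without Raptor (adjusted p = 4.45e-17), Ccne1, cyclin E1, 4.03-fold lower (adjusted p = 4.54e-13), and Skp2, which marks the inhibitor p27 for destruction, 2.40-fold lower (adjusted p = 4.12e-09).

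Of 7 inhibitors of those kinases, 2 were higher and 2 lower without Raptor at 24 h, where 8.35% and 13.1% of all genes were. Cdkn1b, which codes for p27, was 1.63-fold higher (limma, adjusted p = 0.00413), and at 8 h 1.61-fold higher (adjusted p = 0.00915). In wild type it had fallen from 11.20 ± 0.12 (SD, n = 4) to 8.80 ± 0.09 by 24 h. Cdkn1a, which codes for p21, was 1.86-fold higher at 24 h (adjusted p = 0.000333), and Cdkn2c, which codes for p18, was 2.11-fold lower (adjusted p = 2.85e-05), to a mean near background.

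Genes that E2F factors are known to activate at the entry to S phase were lower without Raptor at 24 h in 51 of 52 measured cases, with a median of -1.34. Over all genes 13.1% were lower at 24 h. Clspn, a replication checkpoint protein, was 10.4-fold lower (limma, adjusted p = 2.07e-18) at a Raptor-deficient mean near background, Rrm2, a subunit of ribonucleotide reductase, 11.2-fold (adjusted p = 6.41e-16), and Uhrf1, which keeps DNA methylation through replication, 4.39-fold (adjusted p = 4.4e-15). Orc1, of the origin recognition complex, was the exception, at 0.26 higher (adjusted p = 0.141). It is named because it was the 1 gene outside the count, and in wild type it fell by 24 h. At 8 h 11 of the 52 were lower and 1, Orc1, was higher, where 8.77% and 4.14% of all genes were. The median of the 52 was -0.17 then. Among the 11 were the helicase subunits Mcm6 (1.53-fold, adjusted p = 0.000637) and Mcm2 (1.48-fold, adjusted p = 0.0011), and Hells (1.58-fold, adjusted p = 0.00142), a chromatin remodeller whose group means at 8 h were near background.

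These genes still rose without Raptor. In wild type 51 of the 52 rose between 8 h and 24 h, with a median of 2.21, and in Raptor-deficient cells 43 rose and 1 fell, with a median of 0.93. Over all genes 17.4% rose in wild type, and 15.2% rose and 7.81% fell in Raptor-deficient cells. For 44 of the 52 the rise from 8 h to 24 h was smaller without Raptor by the test of the difference. In that test 3.20% of all genes were called lower.

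The genes of G2 and mitosis that DREAM is known to hold silent were all lower at 24 h, 24 of 24, with a median of -2.26. Over all genes 13.1% were lower then. Aurkb, a mitotic kinase, was lower by a log2 difference of -3.91 (limma, adjusted p = 2.91e-20) at a Raptor-deficient mean near background, Birc5, its partner survivin, 16.3-fold lower (adjusted p = 2.65e-18), and Ube2c, a ubiquitin-conjugating enzyme of mitotic exit, 13.1-fold lower (adjusted p = 2.07e-18). Between 8 h and 24 h 24 of 24 rose in wild type, with a median of 2.64, and 10 in Raptor-deficient cells, with a median of 0.20. Over all genes 17.4% and 15.2% rose. At 8 h 1 of the 24 was lower without Raptor, Aurka, a kinase of the spindle poles (1.45-fold, adjusted p = 0.0257), at group means near background. At that time 8.77% of all genes were lower.

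The promoter letters of both lists were counted in the same way. The E2F motif was in a window of 19 of 45 of the S phase genes with a window (42.2%) and in 1 of 22 of the division genes (4.55%), against 2.61% of all genes with a window. The CHR motif was in 7 of 45 (15.6%) and in 15 of 22 (68.2%), against 20.2%, so the S phase share of it lay near that of all genes. Of the stretches printed above, those of E2f2, E2f8 and Rbl2 held the CHR letters, those of E2f7, Rbl1 and Tfdp1 held E2F letters, and that of E2f3 held both.

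Of 7 measured MuvB and partner genes, 4 were lower at 24 h, with a median of -0.65. Over all genes 13.1% were lower and 8.35% higher then. Mybl2, which codes for B-Myb and replaces the pocket protein on MuvB in dividing cells, was 5.40-fold lower (limma, adjusted p = 5.8e-12), to a mean near background. Foxm1, the factor that joins it in G2, was 2.22-fold lower (adjusted p = 6.88e-09), and Mybl1 1.75-fold (adjusted p = 5.9e-05), at group means near background. At 8 h none of the 7 passed, with differences from -0.21 to 0.30, where 8.77% of all genes were lower and 4.14% higher. Of 11 E2F6 partners, 3 were lower and 1 higher at 24 h, against 13.1% and 8.35% of all genes. Yaf2 and L3mbtl2, subunits of the Polycomb complex that holds E2F6, were 1.62-fold and 1.52-fold lower (adjusted p = 9e-06 and 0.000296), and Mga, its DNA-binding scaffold, was 1.24-fold higher (adjusted p = 0.0143). Of 3 measured germline genes known as E2F6 targets, Tuba3a was lower, 1.24-fold (adjusted p = 0.00766).

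**Figure D4:**
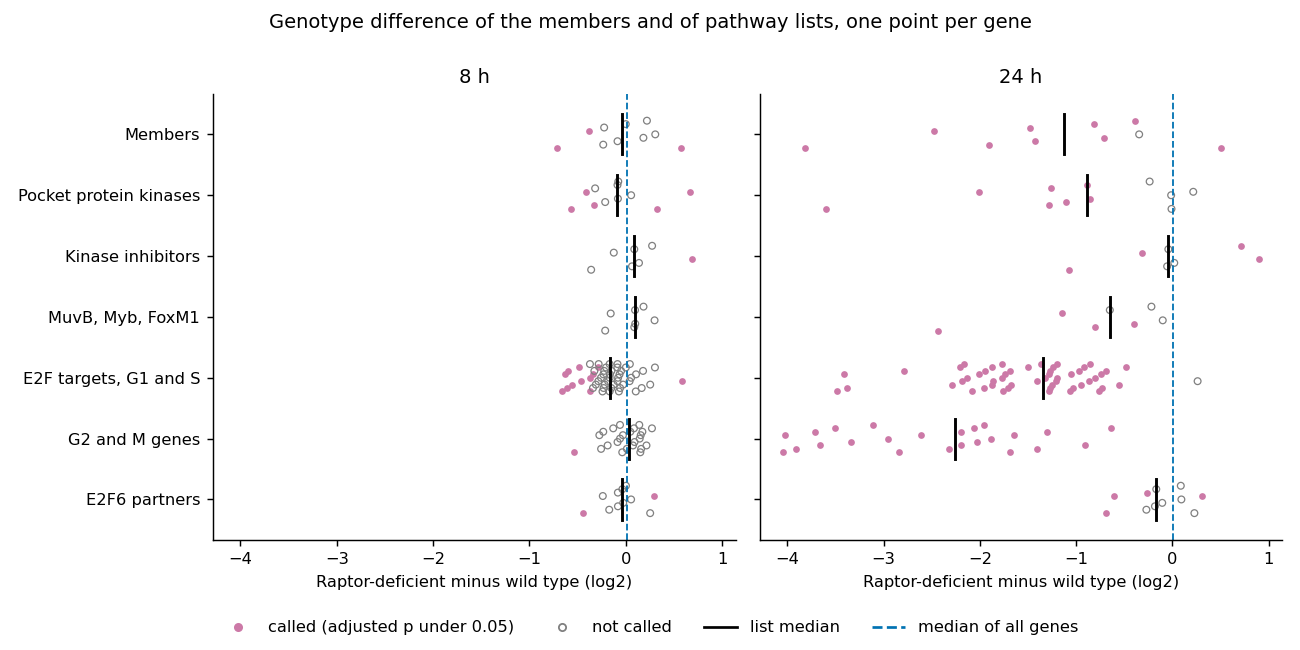
Difference in log2 intensity, Raptor-deficient minus wild type (x axis), at 8 h (left) and 24 h (right) for the members and 6 lists (y axis), 1 point per gene, filled where the adjusted p was under 0.05, with the list median as a black bar and the median of all genes as a dashed line. At 24 h the medians of the members (-1.12), the S phase genes (-1.34) and the division genes (-2.26) lie well left of the dashed line, and at 8 h those of all 7 rows lie within 0.2 of it.

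The members were also set beside all other genes by the shape of their values over the 24 samples. Of 9014 genes compared, those most like E2f8 were Birc5, Aurkb and Bub1, with Pearson r from 0.99 to 0.994, and those most like E2f1 were Birc5, Tpx2 and Bub1 (0.978 to 0.984). E2f2 was most like Ncapg, Brip1 and Racgap1 (0.959 to 0.968), E2f3 like Pclaf, Cep55 and Cdc45 (0.98 to 0.983), and E2f7 like Spc24, Ttk and Kif15 (0.937 to 0.946). Tfdp1 was most like Zcchc3, Lsm3 and Mrpl13 (0.983 to 0.986), E2f6 like Rcc1, Mrpl3 and Zcchc10 (0.966 to 0.979), and E2f4 like Dnmt3b, Xpnpep1 and Mrps7 (0.959 to 0.971). Rbl2 was most like Mxi1, H2az2 and Polr3gl (0.963 to 0.974), and Rbl1 like Cep164, Etaa1 and Cep162 (0.892 to 0.907). These correlations describe 24 samples that share 6 groups, so they follow the group means. Among the members, E2f8 and E2f1 had an r of 0.979, E2f4 and E2f6 of 0.934, and Rbl2 and E2f6 of -0.872.

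Some markers of other cells differed between the genotypes, and most were not called. Over all genes 4.14% were called higher and 8.77% lower without Raptor at 8 h. At 24 h the shares were 8.35% and 13.1%. The summed level of 8 B cell markers, on the log2 scale, was 8.11 to 8.81 in Raptor-deficient and 7.62 to 7.83 in wild-type samples at 24 h, with 3 of the 8 called higher, among them Pax5 (2.59-fold) and Cd79a (1.56-fold). In Raptor-deficient cells 5 of the 8 had means under the median of all values at 24 h, and in wild type 8. For 9 myeloid markers the sums at 8 h were 7.88 to 8.30 and 7.53 to 7.72, with 2 called higher, S100a8 (2.02-fold) and S100a9 (1.79-fold), and 7 and 8 of the 9 were under that median. For 3 erythroid markers the sums at 24 h were 7.43 to 8.84 and 7.01 to 7.43, with none called. For 6 NK and CD8 markers they were 7.91 to 8.23 and 8.04 to 8.28, and for 8 CD4 T cell markers 13.48 to 13.59 and 13.48 to 13.58, with 1, Thy1, called lower. At 8 h 3 of those 8, Cd6, Thy1 and Cd4, were lower, with sums of 12.98 to 13.09 and 13.25 to 13.39. In unstimulated cells 2 of those 8, Cd6 and Cd4, were lower, and 1 of the 9 myeloid markers, S100a9, was higher. Over all genes 1.24% were lower and 0.702% higher then. The unstimulated myeloid sums were 7.76 to 8.25 in Raptor-deficient and 7.55 to 7.67 in wild-type samples. Other marker lists had no call in unstimulated cells. The B cell sums at 8 h were 8.01 to 8.43 and 7.72 to 7.79, with none called. The part of these cells in the member differences was not tested. For the 7 liver markers, which were high in replicate 1 of both 24 h groups, the 8 lower calls at 24 h were made without those 2 samples too, with E2f8 at -3.84.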

How the data were processed

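RNA (20 ng per sample) was amplified and biotin-labelled with NuGEN kits and hybridised to Affymetrix HT MG-430 PM arrays, per the labels' protocols. The authors deposited a table of log2 intensities, made with RMA and Partek 6.5 per the submitters' processing notes. RMA summarises several probes into 1 value and compresses folds of dim genes. Of 45141 probe sets, 28898 had 1 gene symbol, 551 several and 15692 were unlisted in GEO's platform annotation, and symbols were updated through Entrez numbers in RefSeq (GRCm38.p6, 28689 probe sets matched). This left 17097 genes, with no level filter.

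Group means were fitted to all 24 samples with limma 3.58.1 in R 4.3.3 (18 residual degrees of freedom, eBayes). Adjustment was Benjamini-Hochberg over all genes within each of 12 comparisons, two-sided, with a call at an adjusted p under 0.05. Intervals are at 95%. The number of arrays limits the precision. On simulated data for the 24 h comparison with 17097 genes, the fit called 85.1% of 67 genes set 1.5-fold apart and 100% of 67 at 2-fold and 66 at 4-fold, beside 11 unchanged genes.

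The members and gene lists were chosen with earlier results of these data known. Named genes are the members, up to 3 called genes with the smallest p per list and comparison, the remaining E2f5, Rb1 and Tfdp2, and check genes. Genes most like a member are the 3 with the highest Pearson r among named genes whose highest group mean reached 5.51. Of the lists, 17 genes were not analysed here. Replicate numbers of the labels were not taken to pair the samples. Also tried were probe set means per gene, a filter on dim genes, cyclic loess, centring on array medians, a trended robust prior, array weights, only the groups compared, replicate blocks, and each sample left out.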

Additional observations from a re-analysis of the deposited data

Results flagged for a closer look

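Dixon's Q sets the gap between an outermost sample and its nearest neighbour against the range of its group. A tight group can therefore be flagged for a small gap. By this rule 1 sample was flagged in 7 of 60 groups of 4 samples, where chance gives about 1 in 20 groups. On the log2 scale they were E2f2 at 8.22 in wild-type replicate 2 at 24 h, E2f3 at 8.22 in wild-type replicate 4 at 24 h, E2f4 at 7.22 in Raptor-deficient replicate 2 at 24 h, and E2f6 at 6.62 in unstimulated wild-type replicate 2. The others were Rbl1 at 6.80 in Raptor-deficient replicate 3 at 24 h and Rbl2 at 7.03 in Raptor-deficient replicate 3 at 8 h. The last was Tfdp1 at 10.02 in wild-type replicate 1 at 24 h. The nearest samples of the same groups were at 10.09 for Tfdp1, 8.29 for E2f3, 7.31 for E2f4 and 6.99 for Rbl1. They were at 7.92 for E2f2, 6.11 for E2f6 and 7.52 for Rbl2.

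The genotypes differed in a response, by a called interaction in limma, for 13 of 30 gene and interval pairs. The intervals overlap, so a gene can count more than once. Over all genes 4.36% were called lower and 1.94% higher in the response by 8 h. From 8 h to 24 h the shares were 3.20% and 1.33%, and from unstimulated to 24 h 8.01% and 5.26%. Between 8 h and 24 h the change without Raptor was lower than in wild type by -1.39 for E2f1, -2.48 for E2f2, -1.68 for E2f3, -1.73 for E2f7 and -4.00 for E2f8. From unstimulated to 24 h it was lower by -1.43 for E2f1, -1.91 for E2f2, -2.06 for E2f3, -1.52 for E2f7, -3.74 for E2f8 and -0.91 for Tfdp1. For Rbl2 it was higher by 0.75 at 8 h and by 0.68 at 24 h, and both of these calls were lost without most single samples.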

How the results depend on the processing

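Of 4068 member values under an alternative, 3914 kept their side of the threshold, among them 66 uncalled values that changed sign, 92 lost and 62 gained a call, and 0 called values reversed. At 24 h between genotypes 8 members were lower without any single sample, and 7 to 9 under the other alternatives. The 1 higher call there, Rbl2, became 0 with centring and without replicate 1 of both 24 h groups (0 to 1 without single samples). The 1 unstimulated lower call became 0 with cyclic loess, array weights, only the groups compared, and without replicate 1 of both 24 h groups (0 to 1). Unstimulated calls over all genes were 332, 179 with array weights and 52 with only the groups compared (196 to 718). At 8 h members higher ran from 0 to 1 and lower from 1 to 3 without single samples. Members lower in Raptor-deficient cells at 24 h against unstimulated became 2 with the mean of all probe sets, the dim filter, array weights and the replicate block (1 to 2). In the genotype difference of the 8 h response, members higher became 0 with the mean of all probe sets, centring, only the groups compared and without replicate 1 of both 24 h groups (0 to 1). Members lower there became 2 with the mean of all probe sets and array weights, and 1 with the dim filter, centring, the trended robust prior and the replicate block (0 to 2). All genes called there were 1076, and 548 with only the groups compared (753 to 1653). For the 24 h against 8 h response they were 774, and 1294 with array weights. For the 24 h response members higher became 0 with the mean of all probe sets, cyclic loess, centring and without replicate 1 of both 24 h groups (0 to 1). The cause was not tested.

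The labels give no shared source for a replicate number, and 0 of 15 group pairs had all 4 correlations of same-numbered samples over 0.1, so the numbers were not taken to pair the samples. Yet 19 of 24 samples correlated best with their own number, and between the 24 h groups the correlations were 0.25, 0.06, 0.17 and 0.10. The replicate block changed 2 of 120 member calls, Rbl1 in Raptor-deficient cells at 24 h (adjusted p = 0.0216, limma) and Tfdp1 in the 8 h response (0.0494). With the number as a random block within each genotype the correlation was 0.00993. That block joins the times of a genotype, so it cannot show a link between the genotypes at the same time. Centring moved the split of higher and lower calls over all genes at 24 h between genotypes from 1428 and 2243 to 1013 and 2696, and at 8 h from 707 and 1500 to 513 and 1849. In wild type at 24 h it went from 4348 and 4148 to 5145 and 3065, and to 5156 and 3174 with cyclic loess. In the 8 h and 24 h responses it went from 331 and 745 to 225 and 1053, and from 900 and 1370 to 587 and 1750. E2f7 was removed by the dim filter, which kept 9448 genes.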
